A study of Mus musculus with 12 samples.

Results

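The genes described here are 10 alcohol and aldehyde dehydrogenases, Adh1, Adh4, Adh5, Adh7, Aldh1a1, Aldh1a2, Aldh1b1, Aldh1l1, Aldh2 and Aldh3a2. They were taken by symbol from a table of raw counts with 25540 gene symbols. All 10 were in the table, and all 10 were among the 15720 genes left by the filter on low counts. Polyadenylated RNA was sequenced from livers of BALB/c mice in 12 libraries, 3 in each of 4 groups. Every group had been injected with exosomes, small membrane vesicles that the labels call iExos, and the groups differ in the load, which is siCntrl or siSTAT3 in one pair of groups and mASO Scrbl or mASO STAT3 in the other. The siCntrl and mASO Scrbl loads are the controls, and no liver without exosomes was analysed here. The series title names the targeting of STAT3, a transcription factor of cytokine signalling, in liver fibrosis. The labels give no dose, time, age, sex or way in which fibrosis was produced, and they do not say whether the 3 libraries of a group came from separate animals, so p-values measure only the spread between these samples.

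Alcohol dehydrogenases oxidize alcohols to aldehydes, and aldehyde dehydrogenases oxidize aldehydes to acids, both passing the electrons to NAD or NADP. In the liver these enzymes clear ethanol through acetaldehyde to acetate, handle formaldehyde and the aldehydes of lipid breakdown, and turn retinol through retinal into retinoic acid. Hepatocytes hold most of this activity, whereas the retinal dehydrogenase Aldh1a2 is best known from mesothelium and mesenchymal cells.

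Of the 10 genes, 9 had a promoter entry in the RefSeq table of build GRCm38.p6, with 11 windows in all because Adh5 and Aldh1a1 have a pair each. The 250 bases before the annotated start are shown for the member with the most counts per kb of exon (Adh1, chr3:138277335-138277584), the member with the highest fold change (Aldh1l1, chr6:90550543-90550792) and the only member that fell in an arm (Aldh1a2, chr9:71215539-71215788). All 3 lie on the plus strand and are written 5′ to 3′, and capitals mark the dinucleotide CG.
Adh1: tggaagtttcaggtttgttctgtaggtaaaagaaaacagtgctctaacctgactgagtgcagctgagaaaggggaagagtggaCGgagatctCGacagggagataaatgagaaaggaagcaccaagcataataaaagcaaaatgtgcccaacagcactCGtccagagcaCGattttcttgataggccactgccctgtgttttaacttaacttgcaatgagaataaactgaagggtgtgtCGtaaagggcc
Aldh1l1: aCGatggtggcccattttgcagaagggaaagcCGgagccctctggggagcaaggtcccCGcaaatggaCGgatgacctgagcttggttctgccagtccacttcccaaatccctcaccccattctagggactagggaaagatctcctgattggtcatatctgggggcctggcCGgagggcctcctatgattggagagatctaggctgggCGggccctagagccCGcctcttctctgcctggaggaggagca
Aldh1a2: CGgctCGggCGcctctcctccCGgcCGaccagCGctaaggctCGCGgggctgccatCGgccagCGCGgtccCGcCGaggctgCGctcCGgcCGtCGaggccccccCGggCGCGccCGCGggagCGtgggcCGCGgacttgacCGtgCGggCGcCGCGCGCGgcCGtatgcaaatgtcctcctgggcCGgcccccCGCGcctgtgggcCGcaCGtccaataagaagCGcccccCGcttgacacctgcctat

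The Aldh1a2 window held 40 CG, more than 98.7% of the 32851 windows in the table, whose median was 6. Adh1 held 5 and Aldh1l1 held 7. Among the other windows, Adh4 and Adh7 held 1 each, Aldh1b1 held 4 and Aldh3a2 held 18. The windows of Adh5 held 2 and 21, and those of Aldh1a1 held 3 and 1. The TATA box letters TATAAA, searched on both strands and present in 12.4% of all windows, were found in Adh7 and in 1 window of Adh5. The STAT letters TTCNNNGAA, in 7.02% of all windows, and the nuclear receptor letters CAAAGTCCA, in 0.384%, were found in none of the 11 windows. These are matches of letters in short windows.

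Levels are given as CPM, counts per 1000000 of the library total after adjusting totals by TMM, a factor that centres most genes on no change, and tests are edgeR's quasi-likelihood F test over all 15720 genes with Benjamini-Hochberg adjustment, called at an adjusted p under 0.05. Libraries held 39844158 to 67791159 counts. The targeted gene, Stat3, was not called in either pair of groups. Stat3 stood at 106 to 121 CPM in siCntrl and 91.5 to 122 in siSTAT3. The log2 fold change was −0.03 ± 0.14 SE (95% interval −0.34 to 0.27, edgeR adjusted p = 0.868). In mASO Scrbl it stood at 90.0 to 106 against 88.2 to 115 in mASO STAT3. The log2 fold change there was 0.05 ± 0.14 (95% interval −0.25 to 0.36, edgeR adjusted p = 0.792). Both intervals allow a modest fall or rise, and Stat3 in single cell types or as protein was not tested. Groups are therefore named throughout as the libraries are labelled. In siSTAT3 against siCntrl, the first arm below, 45.7% of all genes were called, and in mASO STAT3 against mASO Scrbl, the second arm, 43.8%. Of these calls 48.9% and 48.6% were higher. With library totals in place of TMM the share of higher calls was 18.6% and 16.1%, and the median log2 fold change of all genes moved from −0.04 and −0.05 to −0.53 and −0.63. Changes below are relative to the TMM centre. TMM factors were 1.11 to 1.27 in the control libraries and 0.804 to 0.901 in those labelled STAT3.

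Markers of some liver cell types also differed between the groups. The summed level of 12 hepatocyte markers was 76594 to 118255 CPM in siCntrl against 161744 to 176156 in siSTAT3, and 72405 to 104823 in mASO Scrbl against 143955 to 188840.0 in mASO STAT3, with 5 and 8 of 12 called higher and 0 lower. All 10 markers of hepatocytes around the central vein, such as Glul and Cyp2e1, were called higher in both arms, and their sum was 343 to 410.0 CPM in siCntrl against 10796 to 12375 in siSTAT3, and 321 to 402 in mASO Scrbl against 11490.3 to 12676 in mASO STAT3. The sum of 12 markers of stellate cells and myofibroblasts, the collagen-producing cells of a scarred liver, was 1193 to 1579.7 against 287 to 426 CPM and 869 to 1774 against 418 to 509.8 CPM, with 8 and 7 of 12 lower and 2 and 4 higher. Bile duct markers summed to 555 to 1395 against 95.6 to 153 CPM and 602 to 1340.0 against 84.9 to 109.8 CPM, with 4 and 3 of 6 tested lower. Of the other lists, 9 markers of hepatocytes around the portal vein were higher for 4 and 7 and lower for 1 and 1, and 7 neutrophil markers were higher for 0 and lower for 5 and 6. Among 8 markers each, those of sinusoidal endothelium were higher for 0 and 1 and lower for 2 and 2, those of macrophages higher for 1 and 2 and lower for 2 and 2, and those of lymphocytes higher for 1 and 3 and lower for 1 and 0. Over all genes 22.4% and 21.3% were called higher and 23.4% and 22.5% lower. The lower calls of sinusoidal endothelium and macrophages were near those shares. With library totals 2 and 3 hepatocyte markers were higher and 4 and 2 lower, while all 10 central vein markers stayed higher. The same scaling gave more lower calls in several other lists. Bile duct markers were then lower for 6 and 5 of 6, and stellate cell markers lower for 9 and 7 and higher for 0 and 2. Sinusoidal endothelium was lower for 6 and 3 and higher for 0 in both arms, and macrophages lower for 4 and 3 and higher for 0 in both. Lymphocyte markers were lower for 1 and 0 and higher for 0 in both, neutrophil markers lower for 6 in both, and portal vein markers higher for 4 and 5 and lower for 1 in both. No marker of these 9 lists was at 0 in any group. In whole liver a gene made by fewer cells and a gene with less RNA per cell cannot be told apart, and the part of cell type shares in the values below was not tested.

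Most of the 10 dehydrogenases were higher in the libraries labelled STAT3. In siSTAT3 against siCntrl 8 of 10 rose and 1 fell, where 22.4% of all genes were called higher and 23.4% lower. In mASO STAT3 against mASO Scrbl 8 of 10 rose and 0 fell, where 21.3% of all genes were called higher and 22.5% lower. The same 8 genes rose in both arms: Adh1, Adh4, Adh5, Adh7, Aldh1b1, Aldh1l1, Aldh2 and Aldh3a2. With library totals Aldh3a2 was no longer called in either arm, nor Adh7 in the second. The median log2 fold change of the 10 was 1.28 and 1.45, beside −0.04 and −0.05 over all genes. The 3 control libraries and the 3 STAT3 libraries did not overlap for 9 of 10 genes in either arm, which held for 53% and 56.8% of all genes; the exception was Aldh1a1 in the first arm and Aldh1a2 in the second. Summed over the 10 genes, the level was 3040 ± 167 CPM (SD, n = 3) in siCntrl, 9133 ± 75.9 in siSTAT3, 3162 ± 660.0 in mASO Scrbl and 9680 ± 258 in mASO STAT3.

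**Figure D1:**
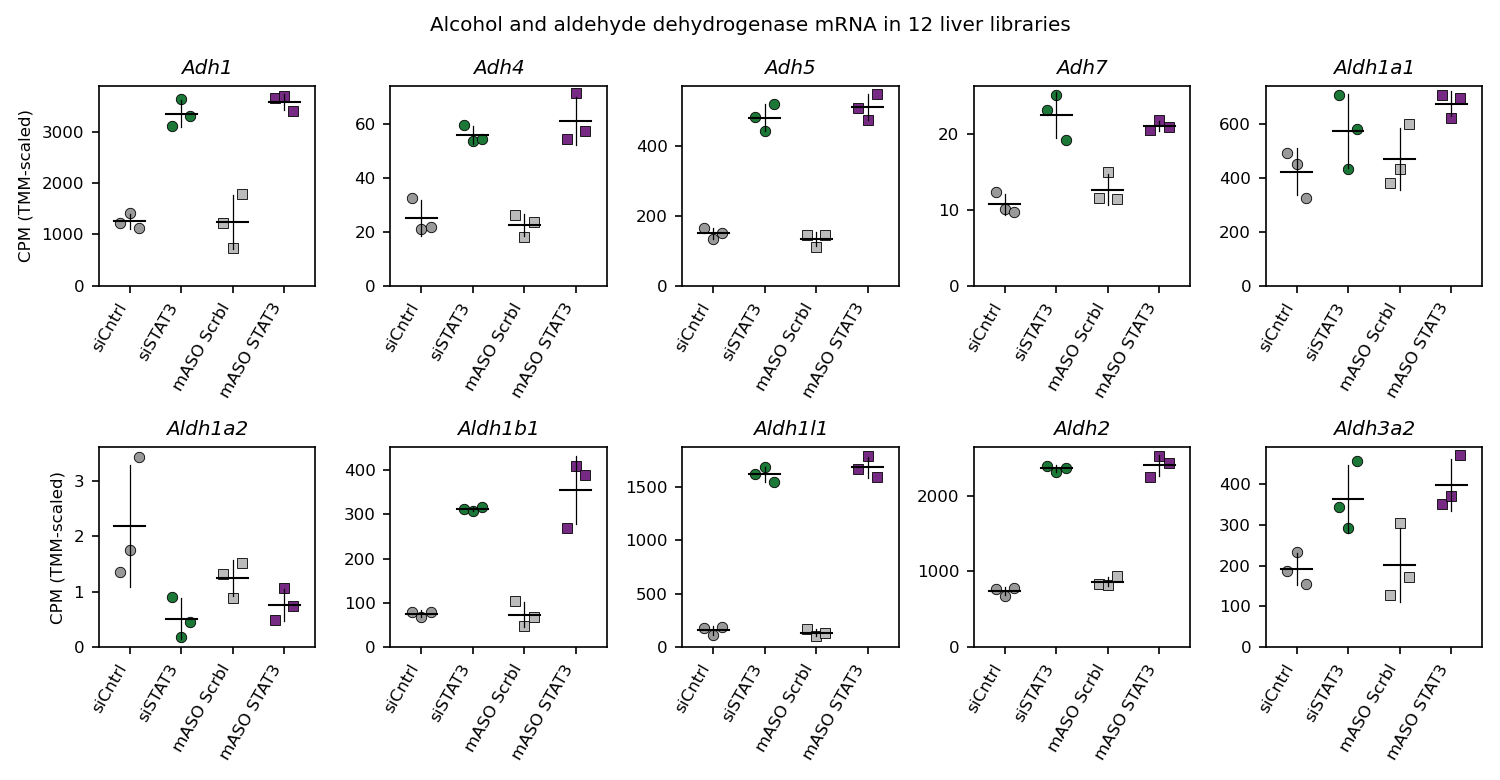
Level of each of the 10 genes (CPM on TMM-scaled totals, linear axis from 0) in the 12 libraries, with the group mean as a bar and the SD as a line (n = 3 per group). For Adh1, Adh4, Adh5, Adh7, Aldh1b1, Aldh1l1 and Aldh2 every STAT3 library lies above every control library. Aldh1a1 overlaps in the first arm and Aldh1a2 is higher in siCntrl than in siSTAT3.

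The 4 alcohol dehydrogenases rose in both arms. Adh1, the main liver enzyme for ethanol, had 1223, 1417 and 1130.4 CPM in siCntrl, 3102, 3632 and 3309 in siSTAT3, 1213, 730.5 and 1789.6 in mASO Scrbl and 3651, 3687 and 3394 in mASO STAT3. The STAT3 libraries lay above all controls, and mASO Scrbl spread most, with a coefficient of variation of 42.6% beside 4.47% in mASO STAT3. Adh1 was 2.66-fold (95% interval 1.84 to 3.85) higher in siSTAT3 and 2.87-fold (95% interval 1.99 to 4.16) higher in mASO STAT3, log2 fold changes of 1.41 ± 0.25 (SE, edgeR adjusted p = 4.15e-04) and 1.52 ± 0.25 (edgeR adjusted p = 2.42e-04). With library totals the log2 fold changes were 0.91 and 0.95, and both calls held.

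Adh5, the glutathione-dependent formaldehyde dehydrogenase found in nearly all tissues, had 165, 134 and 149.7 CPM in siCntrl, 482, 441 and 519 in siSTAT3, 145, 109.7 and 144 in mASO Scrbl and 508, 474 and 549 in mASO STAT3. These groups were well apart: the highest control had 165 CPM and the lowest STAT3 library had 441 CPM. Its log2 fold change was 1.68 ± 0.15 (edgeR adjusted p = 1.27e-06) and 1.94 ± 0.15 (edgeR adjusted p = 4.28e-07), the highest of the 4 alcohol dehydrogenases in both arms. Over the alternatives run the lowest values were 1.20 and 1.36, both still called.

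Adh4, a liver enzyme that oxidizes retinol and longer alcohols, had 32.6, 20.9 and 21.7 CPM in siCntrl, 59.6, 53.7 and 54.4 in siSTAT3, 26.1, 17.9 and 23.6 in mASO Scrbl and 54.5, 71.3 and 57.4 in mASO STAT3. Every STAT3 library stood above every control of its arm. The log2 fold change was 1.16 ± 0.19 (edgeR adjusted p = 2.35e-04) and 1.44 ± 0.19 (edgeR adjusted p = 4.11e-05), or 0.67 and 0.87 with library totals, still called. Adh7, the enzyme best known from stomach lining and active on retinol, was the lowest of the 4 per kb of exon and had 12.3, 10.2 and 9.67 CPM in siCntrl, 23.1, 25.2 and 19.3 in siSTAT3, 11.6, 14.99 and 11.4 in mASO Scrbl and 20.5, 21.8 and 21.0 in mASO STAT3. It rose by 1.07 ± 0.16 on the log2 scale (edgeR adjusted p = 1.01e-04) and 0.74 ± 0.16 (edgeR adjusted p = 0.00175). With library totals the Adh7 change was 0.58, still called, in the first arm and 0.16 (edgeR adjusted p = 0.426), no longer called, in the second. Markers of stomach, gut and pancreas, 9 in the table, summed to 20.6 to 32.8 CPM in siCntrl against 31.6 to 87.9 in siSTAT3, and 16.9 to 29.5 in mASO Scrbl against 33.3 to 63.2 in mASO STAT3, with Pnlip at 0 in all groups and Gif, Cpa1, Prss2 or Muc5ac at 0 in some. Of the 4 markers tested, 1 was called higher in the first arm and 2 in the second, and 0 lower. Over all genes 22.4% and 21.3% were called higher. Both the highest marker sum and the highest Adh7 level were in replicate 2 of siSTAT3, without which the Adh7 change was 0.98 and still called. The part of other tissue in the Adh7 values was not tested.

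These 4 genes lie side by side on chromosome 3 in the RefSeq annotation, in the order Adh7, Adh1, Adh6a, Adh6b, the pseudogene Adh6-ps1, Adh4 and Adh5. Adh6a had 1 count over all 12 libraries. Adh6b and Adh6-ps1 had 285 and 117 counts and were not called, with log2 fold changes of −1.85 ± 0.84 and −0.69 ± 0.80 for Adh6b and 1.76 ± 0.89 and 0.29 ± 0.90 for Adh6-ps1. Of the 4 genes next to the cluster, which were picked after their values were seen, 3 fell in both arms and 1 was called higher in the first arm. The share of all genes called lower was 23.4% and 22.5%. On the Adh5 side Metap1 and Eif4e, both of the protein synthesis machinery, fell: Metap1 by 0.45 and 0.61 and Eif4e by 0.72 and 0.78 on the log2 scale in the respective arms. The Metap1 call in the first arm ended without siCntrl replicate 1 (edgeR adjusted p = 0.0843), without siSTAT3 replicate 2 (0.0714) and in a fit of the compared libraries alone (0.0592). On the Adh7 side Trmt10a, a transfer RNA methyltransferase, had 0.51 ± 0.20 (edgeR adjusted p = 0.0480) and 0.02 ± 0.19 (edgeR adjusted p = 0.944), and the first of these calls ended under most alternatives run, with library totals at 0.01 (edgeR adjusted p = 0.963). Mttp, which loads lipid onto lipoproteins, fell by 1.24 and 0.89.

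**Figure D2:**
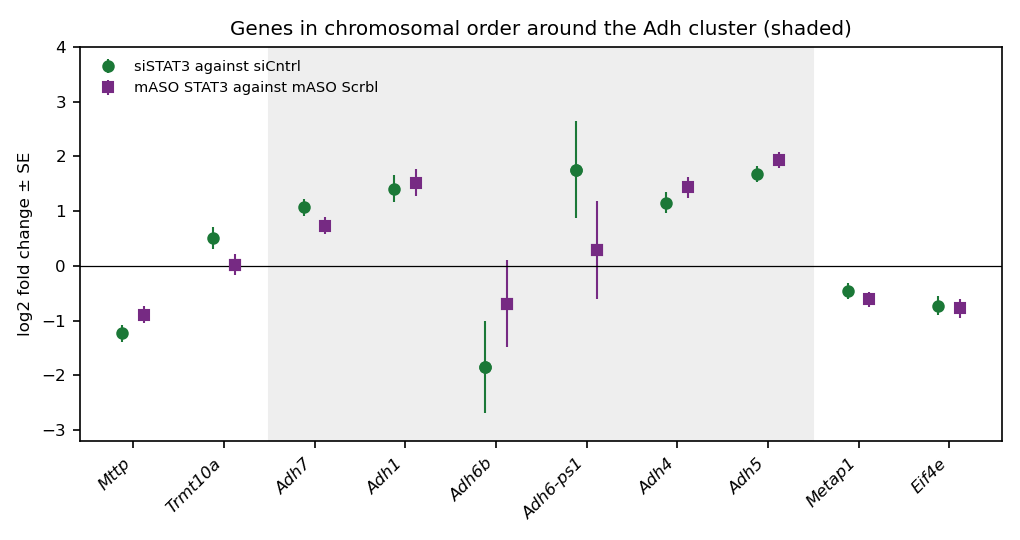
Log2 fold change with its SE for the genes in chromosomal order (not to scale) around the alcohol dehydrogenase cluster, which is shaded, in siSTAT3 against siCntrl (circles) and mASO STAT3 against mASO Scrbl (squares). Adh7, Adh1, Adh4 and Adh5 lie between 0.74 and 1.94, and Mttp, Metap1 and Eif4e lie below 0. Adh6b, inside the cluster and not called, also lies below 0, at −1.85 and −0.69. Adh6a, with 1 count, is not drawn.

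Aldh2 and Aldh1b1 are the mitochondrial enzymes that oxidize acetaldehyde. Aldh2 had 769, 682 and 780.0 CPM in siCntrl, 2395, 2317 and 2368 in siSTAT3, 835, 827 and 936 in mASO Scrbl and 2243, 2526 and 2431 in mASO STAT3. Its replicates were close, with a coefficient of variation of 1.69% to 7.22% in the 4 groups. It was 3.17-fold (95% interval 2.60 to 3.87) and 2.77-fold (95% interval 2.27 to 3.38) higher. The log2 fold change was 1.67 ± 0.13 (edgeR adjusted p = 5.98e-07) and 1.47 ± 0.13 (edgeR adjusted p = 1.77e-06). Over the alternatives run the lowest value was 1.18 in the first arm, and 0.90, with library totals, in the second, both still called. Aldh1b1, a close relative of Aldh2, had 79.9, 67.8 and 80.5 CPM in siCntrl, 312, 307 and 317 in siSTAT3, 104, 47.6 and 67.8 in mASO Scrbl and 268, 409 and 388 in mASO STAT3. It rose by 2.04 ± 0.24 (edgeR adjusted p = 1.80e-05) and 2.28 ± 0.24 on the log2 scale (edgeR adjusted p = 7.27e-06). Its lowest values over the alternatives run were 1.55 and 1.71, both still called.

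The partner enzymes of ethanol and acetate, 5 genes, were higher for 4 and lower for 1 in the first arm and higher for 3 and lower for 0 in the second. Their median log2 fold changes were 1.46 and 2.09. Over all genes 22.4% and 21.3% were called higher and 23.4% and 22.5% lower. Cyp2e1, the cytochrome P450 that also oxidizes ethanol and is among the central vein markers, had 86.2 ± 8.90 CPM (SD, n = 3) in siCntrl and 9380.2 ± 607 in siSTAT3, and 64.6 ± 28.2 in mASO Scrbl and 9447 ± 661 in mASO STAT3. Its log2 fold change of 6.77 ± 0.34 and 7.19 ± 0.35 (edgeR adjusted p = 1.51e-08 and 1.11e-08) was above that of every dehydrogenase described. Cat, the peroxisomal catalase, went from 460.1 ± 88.6 to 2797 ± 573 CPM and from 348 ± 68.7 to 2701 ± 412 CPM, log2 fold changes of 2.60 ± 0.22 and 2.96 ± 0.22. Acss2, the cytosolic enzyme that turns acetate into acetyl-CoA, rose by 1.15 ± 0.20 and 2.09 ± 0.20. Acss1, its mitochondrial counterpart, was the gene that fell in the first arm (−2.25 ± 0.44, edgeR adjusted p = 9.56e-04) and had −0.67 ± 0.42 in the second (edgeR adjusted p = 0.217), a gene named after its values were seen. With library totals Acss1 was called lower in the second arm too (−1.23, edgeR adjusted p = 0.0276), so that 3 genes of the list were higher and 1 lower in each arm.

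Aldh1l1, the cytosolic 10-formyltetrahydrofolate dehydrogenase that removes formyl groups from the folate pool, changed most of the 10 in both arms. It had 175, 113 and 192 CPM in siCntrl, 1617, 1681 and 1545 in siSTAT3, 171, 102 and 135 in mASO Scrbl and 1663, 1781 and 1594 in mASO STAT3. No STAT3 library was below 1545 CPM and no control above 192. The rise was 10.1-fold (95% interval 7.196 to 14.1) and 12.3-fold (95% interval 8.76 to 17.4), log2 fold changes of 3.33 ± 0.23 (edgeR adjusted p = 1.81e-07) and 3.62 ± 0.23 (edgeR adjusted p = 9.11e-08). Over the alternatives run the value stayed between 2.86 and 3.49 in the first arm and between 3.05 and 3.82 in the second, and was called in each. Its mitochondrial homologue Aldh1l2 went the other way at a low level, with 360 counts over the siCntrl libraries and 14 over siSTAT3, a ratio of 14.4 after scaling for depth (95% counting interval 8.48 to 26.6). In the second arm it had 461 counts in mASO Scrbl and 0, 2 and 1 in the mASO STAT3 libraries, a ratio of 89.4 (30.4 to 435 for counting error alone). Aldh1l2 was called lower in both arms (edgeR adjusted p = 1.93e-05 and 1.40e-06). Aldh1l1 had 63.0 to 142 counts per Aldh1l2 count in siCntrl and 13069 to 16769 in siSTAT3.

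Of 15 other folate enzymes tested, 8 were higher and 3 lower in the first arm and 7 higher and 3 lower in the second. Their medians were 0.38 and 0.57 on the log2 scale. Over all genes 22.4% and 21.3% were called higher and 23.4% and 22.5% lower, so the lower calls of the list were near that share. Gnmt, which methylates glycine, had 111 ± 54.0 CPM in siCntrl and 2295 ± 218 in siSTAT3, and 118 ± 7.60 in mASO Scrbl and 2292 ± 53.2 in mASO STAT3 (log2 fold changes 4.37 ± 0.33 and 4.27 ± 0.33). Shmt2, the mitochondrial serine hydroxymethyltransferase, rose by 1.73 ± 0.12 and 1.53 ± 0.12, and Mthfd1, the cytosolic trifunctional folate enzyme, by 1.35 ± 0.13 and 1.53 ± 0.13. The lower ones included Mthfd2 and Mthfd1l in both arms, named after their values were seen. Mthfd2, a mitochondrial enzyme of formate production, fell most (−3.76 ± 0.42 and −3.81 ± 0.41). With library totals 5 and 6 of the 15 were lower.

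For the retinal dehydrogenases Aldh1a1 and Aldh1a2, only the fall of Aldh1a2 in the first arm passed the test. Aldh1a1, the cytosolic enzyme that is abundant in liver, had 492, 453 and 325 CPM in siCntrl, 708, 435 and 583 in siSTAT3, 380.2, 432 and 601 in mASO Scrbl and 708, 623 and 696 in mASO STAT3. In the first arm the lowest siSTAT3 library lay within the control range, and in the second every STAT3 library was above every control. Neither difference was called: the log2 fold change was 0.44 ± 0.21 (95% interval −0.02 to 0.90, edgeR adjusted p = 0.108) and 0.52 ± 0.21 (0.06 to 0.98, edgeR adjusted p = 0.0640). With library totals both values were slightly negative, −0.05 and −0.06. Without siSTAT3 replicate 2 the first was called (0.61, edgeR adjusted p = 0.0348), and without mASO Scrbl replicate 3 the second was (0.73, edgeR adjusted p = 0.0196). The second was also called by the DESeq2 Wald test (0.54, adjusted p = 0.0346) and by edgeR in a fit of the compared libraries alone (0.52, edgeR adjusted p = 0.0341).

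A ratio within a library does not depend on the scaling. Aldh1a1 had 0.640, 0.664 and 0.417 counts per Aldh2 count in siCntrl and 0.296, 0.188 and 0.246 in siSTAT3, and 0.455, 0.523 and 0.642 in mASO Scrbl and 0.316, 0.247 and 0.286 in mASO STAT3. The ratio was 2.35-fold lower in siSTAT3 and 1.90-fold lower in mASO STAT3, with no overlap in either arm. A two-sided exact permutation test gave p = 0.1 each, the smallest that 3 against 3 allows. Groups of this size without overlap always give that value, so the test adds nothing to the lack of overlap. How often the ratios of other gene pairs do not overlap was not computed. Aldh1a7, a close mouse copy of Aldh1a1 with which reads could be shared, had 0.63 ± 0.18 (edgeR adjusted p = 0.0123) and 0.39 ± 0.18 (edgeR adjusted p = 0.0951). The first call ended with library totals (0.14, edgeR adjusted p = 0.536) and without siSTAT3 replicate 1 (edgeR adjusted p = 0.0516). In a fit of the compared libraries alone the second was called (0.39, edgeR adjusted p = 0.0234), and with library totals it was −0.19 (edgeR adjusted p = 0.384). The levels of both genes are uncertain to the extent that the counting divided shared reads.

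Aldh1a2, the main retinoic acid producing enzyme of embryonic and mesothelial tissue, was counted at a low level, with 7 to 239 counts per library. It had 1.36, 1.75 and 3.43 CPM in siCntrl, 0.904, 0.180 and 0.461 in siSTAT3, 1.32, 0.884 and 1.52 in mASO Scrbl and 0.492, 1.06 and 0.745 in mASO STAT3. The siSTAT3 libraries lay below all siCntrl libraries, while mASO STAT3 and mASO Scrbl overlapped. It fell by 2.06 ± 0.54 on the log2 scale in the first arm (edgeR adjusted p = 0.00688), and the second arm gave −0.69 ± 0.52 (−1.80 to 0.42, edgeR adjusted p = 0.303). The difference between the arms, 1.37 ± 0.74, did not pass the test (edgeR adjusted p = 0.703). Leaving out 1 library at a time moved the first value between −2.78 without siSTAT3 replicate 1 and −1.57 without siCntrl replicate 3, and each stayed called.

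Mesothelial markers followed the order of Aldh1a2 between libraries only in part. The sum of 7 such genes in replicates 1, 2 and 3 was 38.1, 22.9 and 73.5 CPM in siCntrl, 38.5, 5.07 and 10.2 in siSTAT3, 20.7, 21.3 and 34.4 in mASO Scrbl and 13.3, 34.7 and 19.2 in mASO STAT3, and none of the 7 was at 0 in any group. In each of the 4 groups the library with the highest marker sum also had the highest Aldh1a2 level. The order of the remaining libraries matched in siSTAT3 and mASO STAT3 and was reversed in siCntrl and mASO Scrbl. Of the 7 markers, Wt1 was called lower in the first arm (−2.06 ± 0.47, edgeR adjusted p = 0.00304) and none in the second. The share of all genes called lower was 23.4% and 22.5%. Without siSTAT3 replicate 1 all 7 were called lower in the first arm, and with library totals 4 were lower in the first arm and 1 in the second. The part of mesothelium in the Aldh1a2 values was not tested.

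Among 20 tested genes of retinol and retinoic acid handling, 9 were higher and 3 lower in the first arm and 10 higher and 1 lower in the second. Their median log2 fold changes were 0.29 and 0.59. The shares of all genes were 22.4% and 21.3% higher and 23.4% and 22.5% lower. With library totals 6 of the 20 were higher and 6 lower in the first arm, and 7 higher and 3 lower in the second. Rdh16, a microsomal retinol dehydrogenase, rose by 1.62 ± 0.14 (edgeR adjusted p = 1.03e-06) and 2.002 ± 0.14 (edgeR adjusted p = 2.06e-07), and its relative Rdh7 by 1.68 ± 0.19 and 1.84 ± 0.19. Rbp4, which carries retinol out of the liver, went from 1940.3 ± 227 to 4947 ± 337 CPM and from 1970.3 ± 212 to 5033 ± 237 CPM (log2 fold changes 1.35 ± 0.15 and 1.35 ± 0.15). The genes that fell included Dhrs9 and Rdh11 in the first arm and Dhrs9 in the second, named after their values were seen. Dhrs9, a short-chain dehydrogenase that oxidizes retinol, fell from 10.5 ± 3.78 to 1.11 ± 0.0699 CPM and from 16.3 ± 3.63 to 2.03 ± 1.17 CPM (log2 fold changes −3.24 ± 0.41 and −2.99 ± 0.39, edgeR adjusted p = 3.92e-05 and 5.18e-05). Rdh11, a microsomal retinal reductase, had −1.17 ± 0.27 and −0.69 ± 0.27. Cyp26a1, which degrades retinoic acid and is induced by it, was named after its values were seen. It had 1.08, 4.15 and 1.98 CPM in siCntrl, 39.8, 9.62 and 13.5 in siSTAT3, 2.52, 0.388 and 4.46 in mASO Scrbl and 30.3, 52.1 and 33.6 in mASO STAT3, log2 fold changes of 3.13 ± 0.81 (edgeR adjusted p = 0.00875) and 3.98 ± 0.83 (edgeR adjusted p = 0.00277). Crabp2 and Stra6, with 9 and 1 counts, were removed by the filter, and Sdr16c5 and Crabp1 were not analysed here.

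Aldh3a2 is the fatty aldehyde dehydrogenase of microsomes and peroxisomes, known from the degradation of long-chain and phytol-derived aldehydes. It had 187, 235 and 155 CPM in siCntrl, 345, 292 and 456 in siSTAT3, 128, 305 and 173 in mASO Scrbl and 352, 372 and 472 in mASO STAT3. In each arm the control and STAT3 libraries did not overlap. The highest mASO Scrbl library came close to the lowest mASO STAT3 library, and mASO Scrbl had a coefficient of variation of 45.5%. Its rise of 0.93 ± 0.28 (edgeR adjusted p = 0.0162) and 0.98 ± 0.28 (edgeR adjusted p = 0.0124) had the highest adjusted p among the 8 genes that rose. The first call ended without siCntrl replicate 3 (edgeR adjusted p = 0.0641) or siSTAT3 replicate 3 (0.0712), and the second without mASO STAT3 replicate 3 (0.0528) or mASO Scrbl replicate 3 (0.0506). Library totals gave 0.42 (edgeR adjusted p = 0.245) and 0.39 (0.265).

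Partner genes of long-chain aldehydes were higher for 6 of 9 and lower for 1 in both arms, with medians of 0.86 and 1.53. Of all genes 22.4% and 21.3% were called higher and 23.4% and 22.5% lower. With library totals 4 and 6 of the 9 were higher and 2 and 2 lower. Cyp4f15 and Cyp4f13, cytochromes that hydroxylate fatty acids, rose by 2.92 ± 0.24 and 1.55 ± 0.15 in the first arm and 3.11 ± 0.24 and 1.53 ± 0.15 in the second. Phyh, the phytanoyl-CoA hydroxylase of peroxisomes, rose by 1.92 ± 0.19 and 2.28 ± 0.19. Hacl1, the peroxisomal lyase that produces fatty aldehydes, rose by 0.76 ± 0.18 and 2.84 ± 0.19. Far1, which reduces fatty acids to alcohols, was the gene that fell (−1.53 ± 0.28 and −1.17 ± 0.28), named after its values were seen.

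Of 18 listed genes of the family outside the 10, 14 were tested. In the first arm 9 were higher and 3 lower, and in the second 8 higher and 3 lower, with medians of 0.82 and 1.01. The lower calls were near the share of all genes, which was 23.4% and 22.5% lower, beside 22.4% and 21.3% higher. With library totals 6 of the 14 were higher and 4 lower in the first arm and 7 higher and 3 lower in the second. Adh6a, Aldh3a1, Aldh3b2 and Aldh3b3 were removed by the filter, with 1 to 24 counts over the 12 libraries. Aldh4a1, the mitochondrial enzyme at the end of proline breakdown, rose by 2.98 ± 0.23 (edgeR adjusted p = 5.10e-07) and 3.39 ± 0.24 (edgeR adjusted p = 2.09e-07). Adhfe1, a mitochondrial hydroxyacid-oxoacid transhydrogenase, went from 18.8 ± 3.997 to 119 ± 22.1 CPM and from 17.8 ± 2.04 to 119 ± 10.3 CPM. Aldh7a1, the enzyme of lysine breakdown, rose by 1.61 ± 0.16 and 1.46 ± 0.16. The lower genes besides Aldh1l2, named after their values were seen, were Aldh18a1, the first enzyme of proline synthesis (−2.63 ± 0.26 and −2.42 ± 0.25), and Aldh3b1, which oxidizes aldehydes at membranes (−2.01 ± 0.22 and −2.18 ± 0.22). Aldh4a1 of proline breakdown and Aldh18a1 of proline synthesis moved in opposite directions in both arms, as did Aldh1l1 and Aldh1l2.

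**Figure D3:**
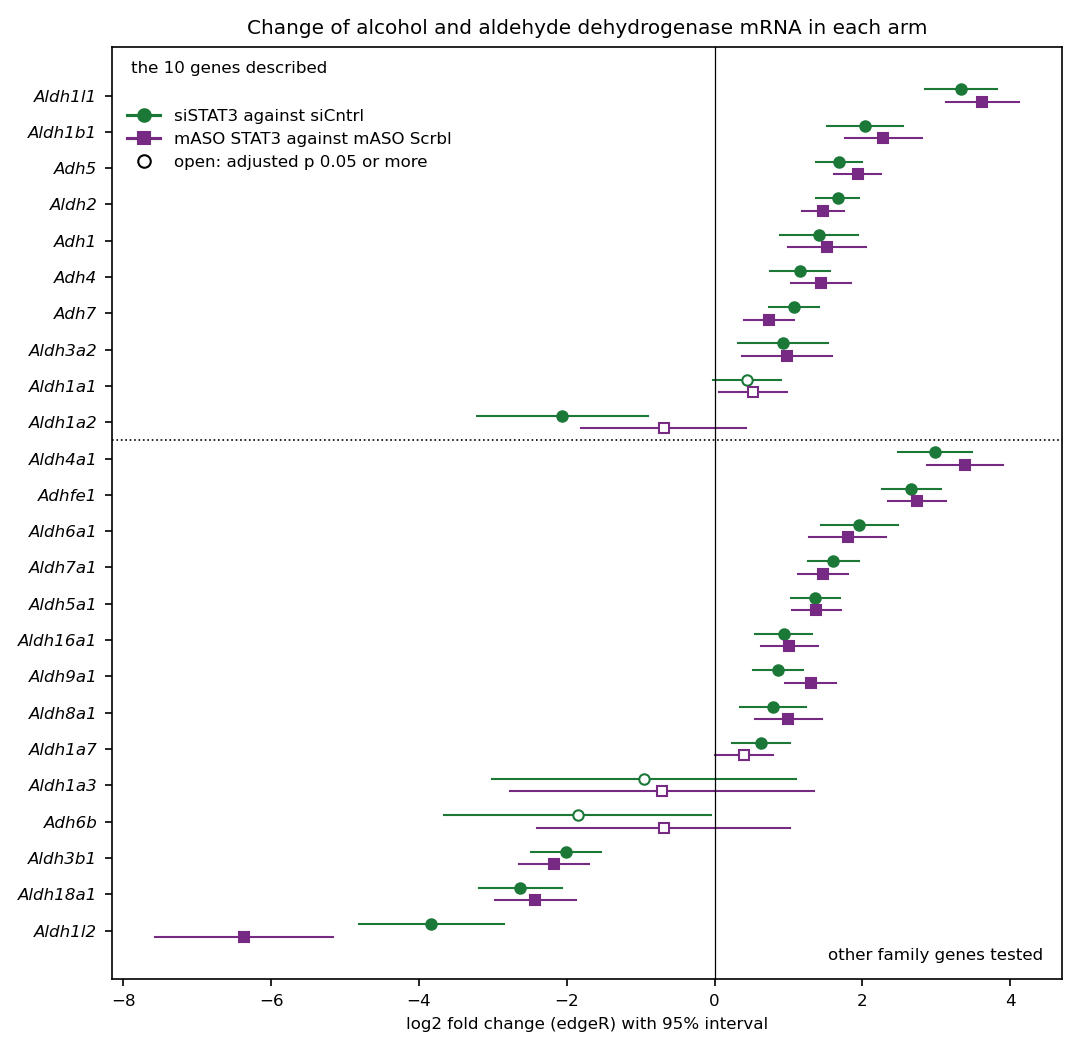
Log2 fold change with its 95% interval for the 10 genes described (above the dotted line) and the other 14 family genes tested (below it), in siSTAT3 against siCntrl (circles) and mASO STAT3 against mASO Scrbl (squares); open symbols have an edgeR adjusted p of 0.05 or more. Aldh1l1 is rightmost at 3.33 and 3.62, and among the 10 genes only Aldh1a2 lies left of 0.

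Enzymes outside the family that clear aldehydes and ketones were higher for 7 and lower for 3 of 15 in both arms, with medians of 0.30 and 0.40. The lower calls were near the share of all genes, 23.4% and 22.5% lower, beside 22.4% and 21.3% higher. With library totals 5 and 7 of the 15 were lower. Aox3, an aldehyde oxidase, went from 12.7 ± 3.59 to 116 ± 20.9 CPM and from 9.55 ± 2.15 to 106 ± 9.51 CPM (log2 fold changes 3.18 ± 0.23 and 3.47 ± 0.23). Hagh, a hydrolase of the glyoxalase system, rose by 1.27 ± 0.17 and 1.43 ± 0.17, Akr7a5, an aldehyde reductase, by 1.74 ± 0.22 and 1.78 ± 0.22, and Cbr4, a mitochondrial carbonyl reductase, by 1.09 ± 0.16 and 1.33 ± 0.16. The genes that fell included Cbr3, a carbonyl reductase (−2.23 ± 0.43 and −1.60 ± 0.42), and Akr1b8, an aldo-keto reductase (−1.84 ± 0.28 and −1.17 ± 0.28), both named after their values were seen.

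To compare levels between genes, CPM was divided by the exon length in kb. Adh1 was first in every group, at 842 ± 97.98 CPM per kb in siCntrl, 2244 ± 179 in siSTAT3, 834 ± 355 in mASO Scrbl and 2398 ± 107 in mASO STAT3, and Aldh2 was second with 179 to 578 as group means. Aldh1a1 came next after Aldh2 in both controls, and they overlapped there. In both STAT3 groups Aldh1l1 came next after Aldh2, without overlap with Aldh2 above it or Adh5 below it, and Aldh1a1 followed Adh5 and overlapped it. Aldh1l1 per kb was 38.3 ± 9.97 in siCntrl and 32.6 ± 8.33 in mASO Scrbl, where it overlapped Aldh3a2 and Aldh1b1, and 387 ± 16.2 and 402 ± 22.6 in the STAT3 groups. Aldh1b1 passed Aldh3a2 in the STAT3 groups without overlap, whereas in siCntrl they overlapped. Adh4, Adh7 and Aldh1a2 were eighth, ninth and last in all 4 groups.

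As a share of the 10 genes' summed CPM per kb, Aldh1l1 was 2.74% ± 0.875 in siCntrl and 9.69% ± 0.371 in siSTAT3, and 2.32% ± 0.608 in mASO Scrbl and 9.44% ± 0.315 in mASO STAT3. The share of Aldh1a1 was 12.4% ± 1.88 and 6.04% ± 1.58 in the first arm and 13.9% ± 2.89 and 6.63% ± 0.586 in the second. Adh1 held 56.1% to 59.1% in the group means.

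**Figure D4:**
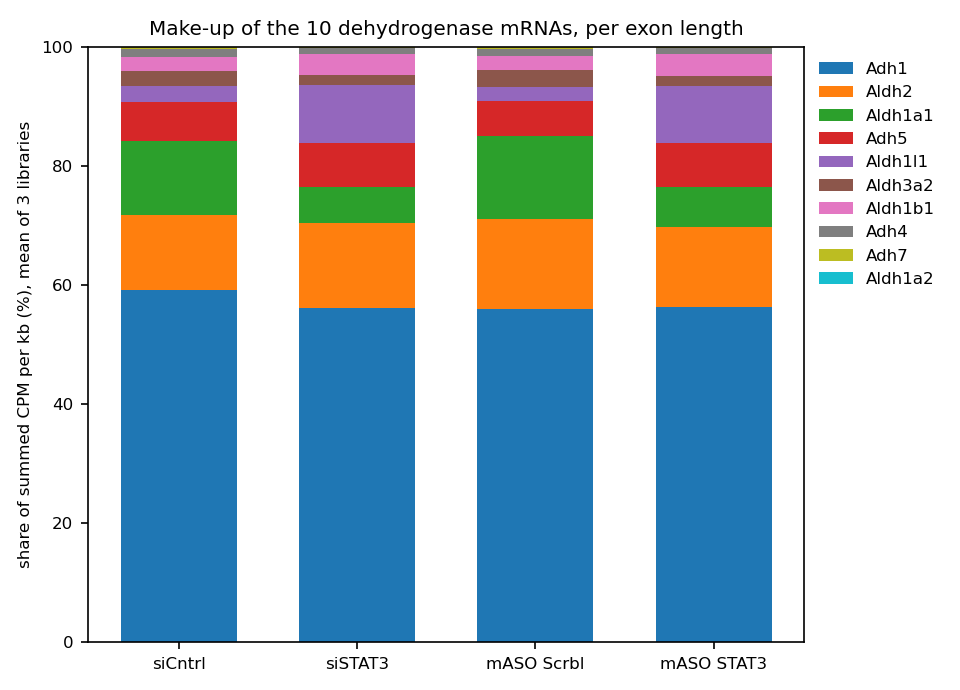
Share of each gene in the summed CPM per kb of exon of the 10 genes (percent, mean of 3 libraries per group). The Adh1 segment fills 59.1%, 56.2%, 56.1% and 56.3% of the 4 bars, the Aldh1l1 segment is wider and the Aldh1a1 segment narrower in both STAT3 bars.

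The arms were compared with each other for the 10 genes. For the difference of the arms, the control pair and the STAT3 pair, 0 of 10 genes were called by edgeR, 0 had an unadjusted p under 0.05, and DESeq2 and limma voom also called 0. The background was 0.00636% of genes (1 gene, Hacl1) for the difference of the arms, 0.0127% for mASO Scrbl against siCntrl and 0% for mASO STAT3 against siSTAT3, where edgeR gave 919 genes with an unadjusted p under 0.05 and DESeq2 called 78. The lowest unadjusted p of the 10 genes was 0.0860, 0.116 and 0.298 in these comparisons. Adh7 had the lowest difference of the arms, −0.33 ± 0.22 (95% interval −0.81 to 0.14), and Aldh1a2 the highest. For Aldh1l1 the difference was 0.29 ± 0.29 (−0.34 to 0.92) and for Aldh2 −0.20 ± 0.18 (−0.59 to 0.20). These intervals give the sizes that the data allow, and a p above the threshold does not show that the arms acted alike.

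The genes whose pattern was most like 4 of the members were ranked by the root mean square difference of log2 CPM over the 12 libraries, each gene centred on its mean, among 12403 genes with a mean of at least 1 CPM. For Adh1 they were Fmo1 (0.142), a flavin monooxygenase, 4931406C07Rik (0.183) and Slc25a23 (0.187), where the median gene had 0.878. Aldh2 was followed most closely by Serpinf1 (0.0644), a secreted serpin, Acadsb (0.0839), an acyl-CoA dehydrogenase, and Pet112 (0.108), with a median of 0.857. Adh7 had Tmem186 (0.110), Timm10 (0.126) and Wdr18 (0.126), with a median of 0.587. Aldh1a2 had no such close match: the nearest were Cav1 (0.307), a caveolae protein, Bst1 (0.311) and the mesothelial marker Wt1 (0.321), with a median of 1.03. Aldh1a2 had only 7 to 239 counts per library, and the part of counting error in its distances was not tested. Among the members themselves, Adh5 and Aldh2 were the closest pair (0.221), followed by Adh4 and Aldh2 (0.258).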

How the data were processed

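Liver RNA was extracted with TRIzol and made into 12 libraries with Illumina's stranded kit for mRNA, per the labels' protocols. The table used here was deposited by the authors as raw counts, whole and unnormalized, with 1 line per symbol. The other table they deposited, a signal, equals those counts over a single factor for each library and served only to show this. The submitters' processing notes name TopHat and Cufflinks and give neither a version nor a role. Genome build, annotation, counter and strand setting: not given in the sources used here. Reads of overlapping, antisense or closely similar genes may therefore be shared.

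All 12 libraries were fitted together in edgeR 4.0.16 under R 4.3.3, with group as the only term, TMM factors, filterByExpr (minimum count 10, minimum total 15) and the robust quasi-likelihood F test with 8 residual degrees of freedom and adjusted p under 0.05. The SE equals the absolute log2 fold change over the root of F, and its 95% interval uses the t distribution. Counting intervals cover counting error only. Replicates were checked for duplication (chi-square per degree of freedom 52.6 to 222 over 12 pairs). Residuals of libraries with the same number correlated at −0.238 to 0.187, so the numbers were not used as pairs. Fits were also run on simulated data in which few genes changed and in balanced directions, unlike these data. That run therefore does not test the scaling.

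The 10 genes and all lists were chosen with earlier results of these data known. Named genes are the 10, Stat3, Cyp2e1, Cat and the 3 members of each family or pathway list with the smallest p in each arm. The 3 genes most like 4 of the 10 are also named. Others given with fold changes are marked in the text, except Aldh1a7, Adh6b and Adh6-ps1. One gene each of the folate and retinol lists is not reported here by name. Exon length is the union of exons in GENCODE M21 basic; a comparison of the protein sequences was planned and not made. Promoters are RefSeq's, build GRCm38.p6. Stra6l, Aldh3b3, Tf and Adgre1 were matched under older or current symbols. Alternatives were library totals, DESeq2's size factors, DESeq2 1.42.0's Wald test, limma voom 3.58.1, no filter, a stricter filter, a replicate block, the compared libraries alone and each library left out.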

Additional observations from a re-analysis of the deposited data

Results flagged for a closer look

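Hacl1, the peroxisomal lyase that splits fatty acyl-CoA and releases fatty aldehydes, was called by edgeR for the difference of the arms. No other gene of the 15720 tested was called in this fit, which does not show that no other gene differed. Hacl1 differed by 2.08 on the log2 scale (edgeR adjusted p = 0.0216). It had 135, 88.3 and 139.8 CPM in siCntrl and 216, 195 and 205 in siSTAT3, and 55.5, 50.9 and 54.7 in mASO Scrbl and 329, 481 and 345 in mASO STAT3. The mASO Scrbl libraries lay below all siCntrl libraries and the mASO STAT3 libraries above all siSTAT3 libraries. Such a lack of overlap, in either direction, held for 12.4% and 11.2% of all genes in these pairs of groups. The call ended with a replicate block (edgeR adjusted p = 0.129), without siSTAT3 replicate 2 (0.0904) or 3 (0.0924), without mASO STAT3 replicate 3 (0.0528), and without mASO Scrbl replicate 2 (0.128) or 3 (0.0907). The rise within the first arm ended with library totals (log2 fold change 0.29, edgeR adjusted p = 0.189). The cause of the difference was not tested.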

How the results depend on the processing

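Of 750 recomputed values of the 10 genes, 711 kept their direction and their side of the threshold, 28 changed sign, 7 lost and 4 gained a call. In the first arm 135 kept both, 1 changed sign, 3 lost and 1 gained a call. In the second arm these numbers were 132, 1, 4 and 3. The other comparisons had no called member, so no call could be lost there. A value that kept both could still shrink, as Adh4 did from 1.16 to 0.67 with library totals in the first arm. With 1 library left out, 7 to 9 members were called higher in the first arm and 7 or 8 in the second, and the replicate block changed no member's call in either arm (8 higher and 1 lower, 8 higher and 0 lower). Library totals ended the calls of Aldh3a2 in both arms and of Adh7 in the second. Scaling by library totals gave Aldh1a1 −0.053 and −0.062 in the arms and −0.0094 for their difference, Aldh3a2 −0.023 for the difference, Aldh1a7 −0.19 in the second arm, and Adh1 0.086 and Aldh1b1 0.055 for mASO Scrbl against siCntrl. Limma voom gave Aldh3a2 −0.00107 between the controls. For Trmt10a in the second arm the value was −0.56 with library totals, −0.00077 without a filter and −0.091 to 0.20 with 1 library left out. None of the differences between the controls, the STAT3 groups or the arms was called for a member, and the following changed sign when 1 library was left out: for the difference of the arms Adh1 (−0.16 to 0.47), Aldh1a1 (−0.090 to 0.29) and Aldh3a2 (−0.19 to 0.48); for the controls Adh1 (−0.37 to 0.26), Adh4 (−0.27 to 0.082), Aldh1a1 (−0.059 to 0.29), Aldh1b1 (−0.40 to 0.17) and Aldh3a2 (−0.35 to 0.32); for the STAT3 groups Aldh2 (−0.014 to 0.070) and Aldh3a2 (−0.011 to 0.32). Genes called for the difference of the arms numbered 1, and 61 with DESeq2, 2 with limma voom, 3 without a filter, 2 with the stricter filter, 0 with the replicate block and 0 to 8 with 1 library left out. Between the controls 2 genes were called, 5 with library totals, 79 with DESeq2, 7 without a filter and 0 to 13 with 1 library left out. Between the STAT3 groups edgeR called 0 (919 had an unadjusted p under 0.05), and 78 were called with DESeq2, 6 without a filter and 0 to 5 with 1 library left out. The cause of these moves was not tested. Depth limits Aldh1a2 and Aldh1l2, with counts as low as 7 and 0 in a library.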
